A study of Mus musculus with 8 samples.

Results

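The FOS and JUN family comprises the transcripts Fos, Fosb, Fosl1, Fosl2, Jun, Junb and Jund, and it was measured here in RNA recovered with an antibody to ELAVL1 from LbetaT2 cells. Members were taken as all probes whose gene symbol in the platform annotation is one of these 7 names. This gave 6 genes of the 16593 with a probe on the Illumina mouse bead array, Fos, Fosb, Fosl1, Jun, Junb and Jund, each with 1 of its 25697 probes, while the level of Fosl2 was not analysed here. LbetaT2 is an immortalised mouse line of pituitary gonadotrope type, the cell that secretes the gonadotropins. The 8 samples were 4 from cells treated for 30 min with gonadotropin-releasing hormone (GnRH) and 4 from cells treated for 30 min with vehicle, and all cells had first been kept without serum for 16 h. Both groups are the same line, and no dose of GnRH is stated in the labels. Nothing in them shows whether replicates are separate cultures, so p-values measure a spread that may be technical.

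Proteins of the FOS and JUN families pair through a leucine zipper to form AP-1, a transcription factor that binds TGACTCA-type sites. JUN proteins can pair with each other or with a FOS protein, whereas FOS proteins generally need a JUN partner. In many cell types Fos, Fosb, Jun and Junb are immediate early genes, switched on within minutes by MAP kinase and calcium signals, and their transcripts carry AU-rich elements and decay quickly. ELAVL1, also named HuR, is a protein that binds AU-rich and U-rich stretches of mRNA, and Fos mRNA is among its known ligands. In gonadotropes AP-1 is known as a link between GnRH and transcription of target genes that include the follicle-stimulating hormone beta subunit.

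All values refer to RNA that came down with ELAVL1. RNA from before the pull-down was not analysed here, so more transcript in the cell and more binding per transcript cannot be told apart. Raw median signal per array lay between 37.4 and 42.1 on GnRH arrays and between 33.4 and 41.7 on vehicle arrays, of which replicate 4 was the dimmest. Between 10802 and 11663 probes per array were above background (detection p below 0.05). Among 11 fixed gonadotrope markers 7 were tested, including Cga, Gnrhr, Nr5a1 and Lhx3, and the defining hormone transcripts Lhb and Fshb were not above background on any array. Of 10 markers of other pituitary lineages Neurod1 alone was tested, and of the 5 blood markers on the array none was above background. Of 9 fibroblast and endothelial markers the endothelial genes Cdh5, Kdr, Pecam1 and Vwf were tested. The summed raw signal of these 9 was 1980 to 3019 on GnRH arrays and 1649 to 2768 on vehicle arrays, no marker of any of these lists passed the test described next, and their part in the results was not tested.

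Probes were compared as log2 signals after background correction and quantile normalization, which gives every array the same distribution of values. A probe was tested if it was above background on at least 4 of the 8 arrays, and called when its limma p-value, adjusted by the Benjamini-Hochberg method over all 11318 tested probes, was below 0.05. Fos, Fosb, Jun, Junb and Jund were above background on all 8 arrays and were tested, and Fosl1 was not. Of the 5 tested members 4, Fosb, Fos, Junb and Jun, rose after GnRH and none fell, where 0.265% of all tested probes were higher and 0% lower. At an unadjusted p below 0.05, 2.09% of all tested probes were higher and 0.813% lower. Ranked by log2 change among all tested probes, Fosb was number 3, Fos 4, Junb 5, Jun 7 and Jund 128. The median log2 change of the 5 was 4.07, beside -0.008 for all tested probes.

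Promoter sequence is shown for the 4 members whose RNA recovered with ELAVL1 rose after GnRH. Transcription from these promoters was not measured. The windows are from RefSeq (GRCm38.p6), run from 250 bases before the annotated transcript start to 50 bases after it, and are written 5′ to 3′ on the strand of the gene. Fos lies at chr12:85473640-85473939 on the plus strand, Fosb at chr7:19309996-19310295 on the minus strand, Jun at chr4:95052173-95052472 on the minus strand and Junb at chr8:84978699-84978998 on the minus strand. Capitals mark matches to the motifs named in the next paragraph.
Fos: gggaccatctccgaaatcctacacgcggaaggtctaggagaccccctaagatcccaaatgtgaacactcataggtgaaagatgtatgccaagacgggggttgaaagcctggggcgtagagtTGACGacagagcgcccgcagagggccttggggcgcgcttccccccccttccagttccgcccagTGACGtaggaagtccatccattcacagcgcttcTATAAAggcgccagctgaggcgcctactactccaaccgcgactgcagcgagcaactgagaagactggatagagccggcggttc
Fosb: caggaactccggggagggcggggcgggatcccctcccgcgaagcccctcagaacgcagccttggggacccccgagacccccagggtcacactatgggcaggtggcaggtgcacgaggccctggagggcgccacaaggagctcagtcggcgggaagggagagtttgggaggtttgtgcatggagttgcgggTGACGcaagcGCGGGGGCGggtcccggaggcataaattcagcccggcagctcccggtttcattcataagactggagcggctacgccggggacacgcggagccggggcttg
Jun: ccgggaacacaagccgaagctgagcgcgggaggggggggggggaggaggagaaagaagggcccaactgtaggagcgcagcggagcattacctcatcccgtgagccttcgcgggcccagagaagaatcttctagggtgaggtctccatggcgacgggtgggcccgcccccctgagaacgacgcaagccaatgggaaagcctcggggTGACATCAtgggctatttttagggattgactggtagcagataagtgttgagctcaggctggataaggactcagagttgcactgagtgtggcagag
Junb: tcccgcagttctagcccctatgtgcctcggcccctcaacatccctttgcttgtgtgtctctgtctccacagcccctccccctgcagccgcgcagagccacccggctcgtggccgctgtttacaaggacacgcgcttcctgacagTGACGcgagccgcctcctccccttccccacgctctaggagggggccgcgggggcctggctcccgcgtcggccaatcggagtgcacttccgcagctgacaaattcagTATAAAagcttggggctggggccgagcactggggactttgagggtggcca

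Motifs were searched on both strands in the windows of 6 members, Fos, Fosb, Fosl2, Jun, Junb and Jund, and in all 32851 windows of the table. The full cyclic AMP response element TGACGTCA, the AP-1 site TGACTCA and the CArG box, the core of the serum response element, had no match in the 6 windows. These were held by 1.79%, 5.20% and 1.63% of all windows. Sequence more than 250 bases before the start was not searched, so a missing match does not show that a promoter lacks the element. The TATA box TATAAA began 33 bases before the annotated start in Fos and at the first base of the annotated transcript in Junb, and 13.6% of all windows held it. All distances here are from annotated starts, whose accuracy was not tested. The EGR site GCGNGGGCG began 50 bases before the start in Fosb and 79 bases before it in Fosl2, with 5.55% of all windows. After the sequences had been read, the core TGACG of the response element and the variant TGACATCA were added. This core, which is part of the full element, began 129 and 66 bases before the start in Fos, 60 bases before it in Fosb and 106 bases before it in Junb, and stood in 20.8% of all windows. TGACATCA, which overlaps none of the other motifs, began 45 bases before the start in Jun and stood in 3.62% of all windows. The window of Jund held none of these motifs. A match describes the letters of the window, and binding of a factor was not measured.

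Fos encodes the founding FOS protein, the partner of JUN in classical AP-1. Its probe (ILMN_2750515) had raw bead signals of 9726, 8528, 9915 and 9477 in GnRH replicates 1 to 4, against 472, 742, 665 and 189 in vehicle replicates 1 to 4. The groups did not overlap, and the lowest GnRH signal was 11.5 times the highest vehicle signal. The GnRH arrays were close to each other, while vehicle replicate 4 lay well below the other vehicle arrays. After normalization Fos stood at a log2 signal of 13.14 ± 0.16 on GnRH arrays and 8.84 ± 0.62 on vehicle arrays (SD, n = 4 each). Its log2 change was 4.30 ± 0.27 (SE), a 19.7-fold rise with a 95% interval of 12.99 to 29.85 (limma adjusted p = 2.36e-05). GnRH replicates 3 and 4 had the same normalized value, 13.28, because Fos held the same rank, 12, among the probes of both arrays. The spread of the GnRH group is thus partly set by the normalization for this bright probe. After median scaling, the log2 change was 4.37.

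Fosb encodes a FOS family protein that is also made as a truncated, long-lived splice form in neurons, and the probe (ILMN_2778279) was not assigned to a splice form here. Raw signals were 2914, 2744, 2000 and 3605 in GnRH replicates 1 to 4, against 76.7, 66.3, 67.5 and 49.3 in vehicle replicates 1 to 4. Every GnRH array was at least 26.1 times the highest vehicle array. The vehicle signals were low but above background, with detection p-values between 0.00125 and 0.00501. Normalized log2 signals averaged 11.36 ± 0.40 on GnRH arrays and 5.63 ± 0.13 on vehicle arrays (SD, n = 4 each), a log2 change of 5.74 ± 0.20 (SE) or 53.3-fold with a 95% interval of 39.3 to 72.1 (limma adjusted p = 9.86e-08). With vehicle signals this near background, the size of the change depended on the constant added after background correction, and it was 5.00 on the log2 scale with an offset of 50 in place of 16.

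Fosl1 encodes FRA-1, a FOS family member that in many cells is induced later than Fos. Its probe (ILMN_2649550) gave raw signals of 42.5, 46.7, 42.6 and 39.1 in GnRH replicates 1 to 4, against 45.3, 37.2, 33.7 and 32.1 in vehicle replicates 1 to 4. Only GnRH replicates 2 and 3 were above background, at detection p-values of 0.0301 and 0.0313, and no vehicle array was. The groups overlapped, with vehicle replicate 1 above GnRH replicates 1, 3 and 4. Set against the lowest detected signal on the vehicle arrays, the GnRH mean was at least 1.00-fold higher. Such a lower bound neither shows nor excludes a difference. With no filter on dim probes the log2 change was 0.20 ± 0.09 (SE, limma unadjusted p = 0.0549, adjusted p = 1.00).

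Jun encodes c-JUN, the main partner of FOS and a target of JNK kinases. Raw signals of its probe (ILMN_2646625) were 1110, 1030, 893 and 1268 in GnRH replicates 1 to 4, against 124, 120, 113 and 91.2 in vehicle replicates 1 to 4. The groups were apart by a factor of at least 7.23, and both were tight. Normalized log2 signals averaged 9.98 ± 0.29 on GnRH arrays and 6.64 ± 0.10 on vehicle arrays (SD, n = 4 each). The log2 change was 3.34 ± 0.17 (SE), a 10.1-fold rise with a 95% interval of 7.84 to 13.1 (limma adjusted p = 2.57e-06).

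Junb encodes a JUN protein that activates transcription less strongly than c-JUN on many promoters and can restrain it. Its probe (ILMN_1220034) had raw signals of 1537, 1569, 475 and 1674 in GnRH replicates 1 to 4, against 91.2, 68.9, 65.4 and 97.4 in vehicle replicates 1 to 4. The groups did not overlap, but GnRH replicate 3 lay far below the other GnRH arrays while still 4.87 times the highest vehicle array. Normalized log2 signals averaged 10.12 ± 0.87 on GnRH arrays and 6.05 ± 0.61 on vehicle arrays (SD, n = 4 each). The log2 change of 4.07 ± 0.42 (SE) was a 16.8-fold rise with a 95% interval of 8.83 to 32.1, on the log2 scale the widest of the 4 called members (limma adjusted p = 0.00146). Without GnRH replicate 3 the change was 4.50 on the log2 scale (adjusted p = 0.00016, limma). The call ended with no filter on dim probes, where 25697 probes entered the fit (adjusted p = 0.0738, limma).

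Jund encodes the JUN protein that many resting cells express steadily. Raw signals of its probe (ILMN_2682788) were 334, 422, 282 and 505 in GnRH replicates 1 to 4, against 243, 227, 213 and 256 in vehicle replicates 1 to 4. On this scale all GnRH values lay above all vehicle values, by a factor of at least 1.10. Raw signals carry the brightness of each array, and the share of all tested probes with this raw order was not counted. The raw order is therefore not read as a rise of Jund. After normalization the groups overlapped, and vehicle replicate 4, the dimmest array, reached 8.50 on the log2 scale, above GnRH replicates 1 and 3 at 8.01 and 8.06. Means were 8.44 ± 0.49 on GnRH arrays and 7.86 ± 0.44 on vehicle arrays (SD, n = 4 each). The log2 change of 0.58 ± 0.28 (SE), with a 95% interval of -0.03 to 1.19, did not pass (limma adjusted p = 1.00). Without vehicle replicate 4 it was 0.80 and did not pass either (limma adjusted p = 0.947).

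**Figure D1:**
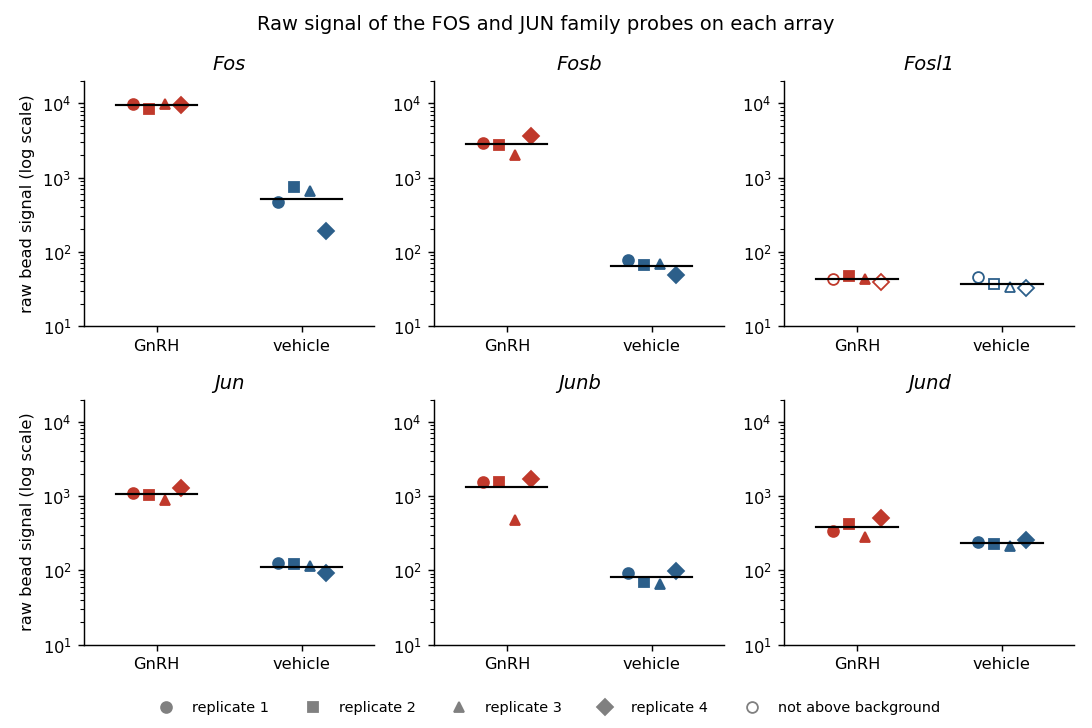
Raw bead signal (log axis) of the 6 family probes on each array, GnRH and vehicle, with a marker shape per replicate, open markers for arrays where the probe was not above background, and a bar at the group mean. Fos, Fosb, Jun and Junb lie higher on every GnRH array than on any vehicle array, with Junb on GnRH replicate 3 at 475, Fos on vehicle replicate 4 at 189, and Fosl1 near background in both groups.

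Normalized values of all 4 GnRH arrays exceeded those of all 4 vehicle arrays for 4 of the 5 tested members, where 1.53% of all tested probes had that order. Passing the test favours such an order, so for the called members it adds little. Over 19 alternative settings, which include leaving out each array in turn, Fos stayed called in 19 with log2 changes from 3.96 to 4.47, Fosb in 19 from 5.00 to 5.87, Jun in 19 from 2.96 to 3.48 and Junb in 18 from 3.51 to 4.50. Jund was called in 0 of 19, with changes from 0.39 to 0.80, positive in 19. The authors' own processed intensities gave log2 changes of 4.22 for Fos, 5.30 for Fosb, 3.13 for Jun, 3.76 for Junb and 0.55 for Jund. Without any scaling between arrays the median change of all tested probes was 0.11 on the log2 scale, small beside the changes of the 4 called members.

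**Figure D2:**
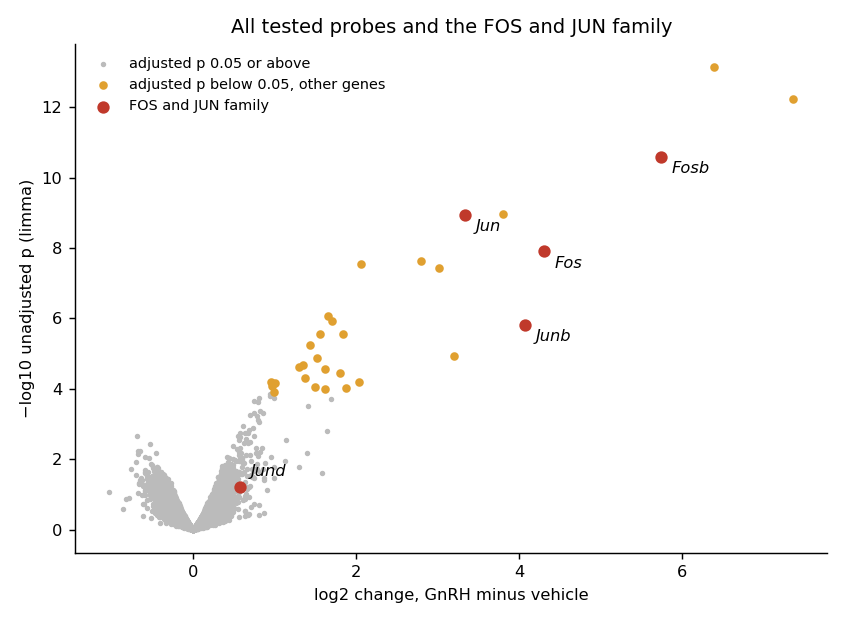
Log2 change (GnRH minus vehicle) against −log10 of the unadjusted limma p for the 11318 tested probes, with called probes of other genes in orange and the 5 tested family members in red. Fosb, Fos, Junb and Jun stand at the right among the largest rises, at 5.74, 4.30, 4.07 and 3.34, while Jund lies at 0.58 among probes that did not pass.

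**Figure D3:**
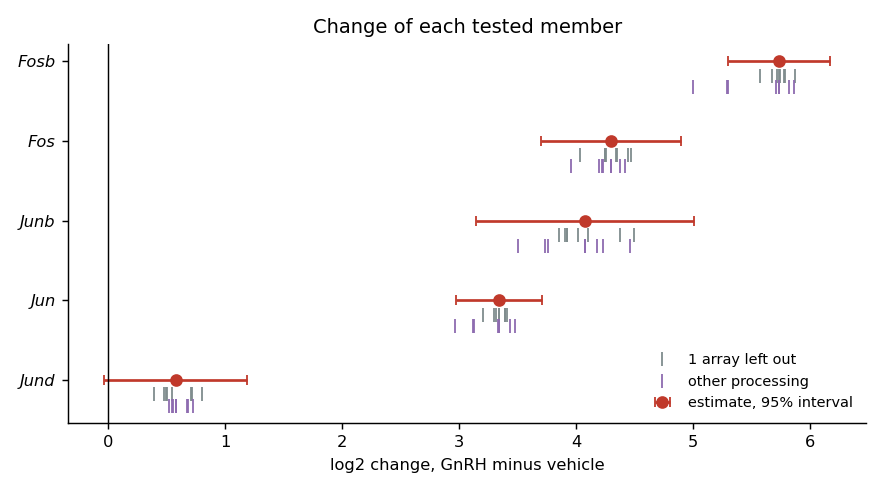
Log2 change of each tested member with its 95% interval (red) and its value when 1 array is left out (grey) or another processing step is changed (purple). The marks of Fosb, Fos, Junb and Jun all lie at 2.96 or higher, and the interval of Jund includes 0.

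The size of the change differed among members. Each pair of members was compared by the difference of their log2 signals on an array, averaged in the GnRH and the vehicle group, with an exact two-sided permutation test over the 70 splits of the 8 arrays. The smallest p this test can give is 0.0286, which becomes 0.0357 after Benjamini-Hochberg adjustment over the 10 pairs. A change read on different probes includes the response range of each probe, so these are differences in measured change. Fosb rose more than Jun by 2.40 on the log2 scale (95% interval 2.15 to 2.65, exact permutation adjusted p = 0.0357) and more than Junb by 1.66 (0.62 to 2.70, the same exact adjusted p). Fosb, Fos, Junb and Jun each changed more than Jund, by 5.16, 3.72, 3.50 and 2.76 (each with the same exact adjusted p).

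Fosb and Fos differed in measured change by 1.44 on the log2 scale (95% interval 0.52 to 2.35, exact permutation adjusted p = 0.0357). That call ended with median scaling, with an offset of 50, where the difference was 0.80, and without any single GnRH array or without vehicle replicate 2. Fos and Jun differed by 0.96 (0.02 to 1.91, the same exact adjusted p), a call that ended without any single GnRH array and without vehicle replicate 4, where the difference was 0.63. Fos and Junb did not pass, with a difference of 0.23 and an interval of -1.67 to 2.13 (exact permutation adjusted p = 0.743). It was -0.25 without GnRH replicate 3 and -0.34 without vehicle replicate 4. Junb and Jun did not pass either, at 0.74 with an interval of -0.33 to 1.80 (exact permutation adjusted p = 0.159). In measured change the order was therefore Fosb, Fos, Junb, Jun and Jund, in which neither Fos and Junb nor Junb and Jun differed beyond their spread.

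Within a group the members did not all move together from array to array. Among GnRH arrays, replicate 4 had the highest normalized value of Fosb, Jun, Junb and Jund and shared the highest value of Fos. Replicate 3 had the lowest value of Fosb, Jun and Junb. Among vehicle arrays, replicate 4 had the lowest value of Fos, at -0.86 from the group mean on the log2 scale. On the same array Junb was 0.83 and Jund 0.64 above their group means, and all 3 deviations kept their direction after median scaling, at -1.26, 0.50 and 0.22. For Jun on that array the sign depended on the scaling, at 0.12 after quantile normalization and -0.22 after median scaling.

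Over the 8 arrays, deviations from the group means correlated at r = 0.883 between Fosb and Jun, and at 0.958 after median scaling. Junb and Jund correlated at 0.81, and at 0.767 after median scaling. Fos and Junb correlated at -0.637, and at -0.455 after median scaling. Fos and Jun changed sign with the scaling, at -0.219 and 0.523. These are descriptions over 8 arrays that share their brightness, with no test. For scale, 0.168% of tested probes correlated with Fosb at least as highly as Jun did, and 6.68% with Junb at least as highly as Jund did.

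**Figure D4:**
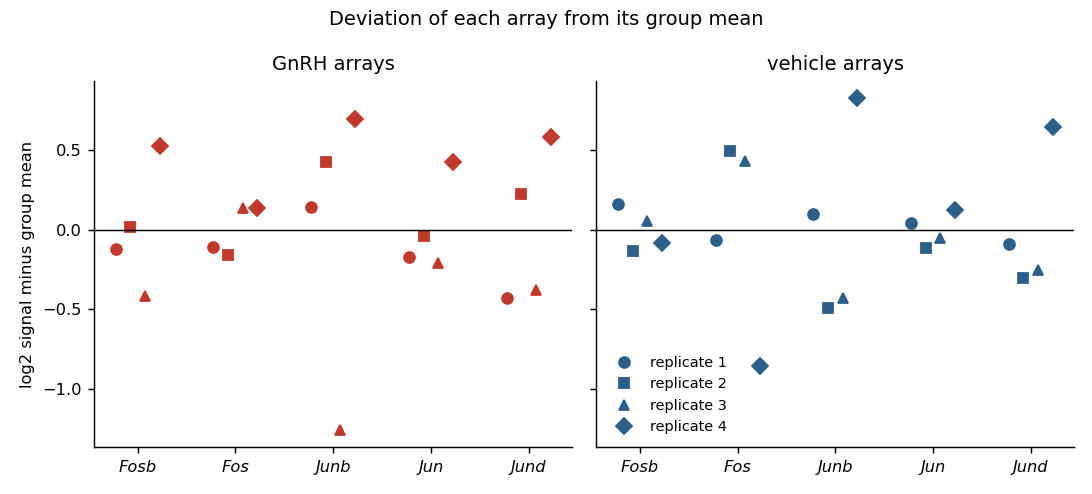
Normalized log2 signal of the 5 tested members on each array minus the mean of its group, GnRH arrays left and vehicle arrays right, with a marker shape per replicate. GnRH replicate 3 lies at -1.26 for Junb, and vehicle replicate 4 lies at -0.86 for Fos while it lies above 0 for Junb and Jund.

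The genes whose values over the 8 arrays were most like those of a member were found by Pearson's r among 10468 tested probes with a gene name, a measure that the shared contrast of GnRH and vehicle dominates. For Fos they were Egr1 (0.994), Egr4 (0.987) and Egr2 (0.981), zinc finger factors of the immediate early class. For Fosb they were Egr4 (0.996), Egr2 (0.996) and Npas4 (0.992), a factor known from active neurons. Jun was nearest to Egr4 (0.995), Egr2 (0.994) and Zfp36 (0.994), which encodes tristetraprolin, a protein that speeds decay of AU-rich transcripts. Junb was nearest to Npas4 (0.985), Irf2bpl (0.984) and Ccn1 (0.982). For Irf2bpl (0.74 ± 0.13) and this Ccn1 probe (0.55 ± 0.13) the log2 change, given with its SE, did not pass (limma adjusted p = 0.0675 and 0.445). With the group difference removed, the correlation of Fos was 0.799 with Egr1, 0.525 with Egr4 and -0.644 with Egr2. That of Fosb was 0.337 with Egr4, 0.0326 with Egr2 and 0.792 with Npas4. That of Jun was 0.454 with Egr4, 0.257 with Egr2 and 0.747 with Zfp36. Much of the likeness to Egr2 and Egr4 thus lay in the difference between GnRH and vehicle arrays. Junb correlated in this way at 0.875 with Npas4, 0.815 with Irf2bpl and 0.855 with Ccn1. For scale, 6.68% of tested probes had a correlation of deviations with Junb of 0.81 or more. All these genes were picked on the same 8 arrays, so the values are no separate support for a likeness.

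The 6 lists of genes that act with the family were read in the same fit, by counts and medians. Over all tested probes 0.265% were called higher and 0% lower, so a short list without a called gene is near that share. Among bZIP relatives, proteins with the same kind of DNA-binding zipper, Atf3 rose and the other 11 of 12 tested genes did not pass. Atf3, a stress-induced factor that can pair with JUN proteins, stayed at background on all 4 vehicle arrays, and the GnRH arrays were at least 2.95-fold higher (adjusted p = 0.0384, limma). The probe passed the filter on dim probes through the GnRH arrays alone, so its call rests on that filter, and with no filter it was not called (adjusted p = 0.357, limma). The list's median log2 change was 0.03. Of the 19 tested kinases upstream of FOS and JUN none passed, with a median of -0.13. The lowest p-values there belonged to Mapk10, the neuronal JNK, at -0.42 ± 0.21 and -0.07 ± 0.19 for its 2 probes, and to Araf, a RAF kinase, at 0.36 ± 0.19 and 0.06 ± 0.24 (log2 change ± SE, limma adjusted p = 1.00 for each).

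Among 10 tested regulators of the Fos and Jun promoters, Srf, the factor that binds the serum response element, rose by 1.38 ± 0.21 on the log2 scale (SE, adjusted p = 0.0262, limma). It stood at 9.96 ± 0.32 on GnRH arrays and 8.58 ± 0.33 on vehicle arrays (SD, n = 4 each). The other 9 did not pass, and the list's median was -0.12. With no filter on dim probes Srf was not called (adjusted p = 0.183, limma). Of 12 tested genes for decay and binding of AU-rich transcripts Zfp36 alone rose, by 2.80 ± 0.19 (SE, adjusted p = 3.88e-05, limma), with a list median of -0.07. Elavl1 itself, the pull-down's target protein, had a log2 signal of 12.20 ± 0.13 on GnRH arrays and 12.45 ± 0.11 on vehicle arrays (SD, n = 4 each) and did not pass (limma adjusted p = 1.00). Its unadjusted limma p was 0.088. All 4 GnRH values of Elavl1 lay below all 4 vehicle values, an order held by 0.618% of all tested probes.

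None of 13 tested genes for turnover and partners of FOS and JUN proteins passed. Fbxw7, a ubiquitin ligase subunit that targets c-JUN, stood at -0.32 ± 0.17 and -0.09 ± 0.17 for its 2 probes, and Ncoa1, a coactivator, at -0.29 ± 0.21 (log2 change ± SE, limma adjusted p = 1.00 for each), with a list median of -0.10. None of 12 tested genes with AP-1 sites known from the literature passed either, and their median was 0.03. One of them, Gnrhr, the GnRH receptor, could not have passed, because its probe was the brightest on all 8 arrays and quantile normalization gave it the same log2 value, 13.64, on each. Its raw signals were 12975 to 13705 on GnRH arrays and 8423 to 13864 on vehicle arrays, and after median scaling its log2 change was 0.09 ± 0.19 (SE, limma adjusted p = 1.00). The count thus covers the other 11 genes. With 0.265% of all tested probes called higher, the lack of a call in so short a list says little about AP-1 targets. Vegfa, an angiogenic growth factor, had probes at 0.72 ± 0.29 and 0.13 ± 0.17, and Timp1, an inhibitor of metalloproteinases, at 0.33 ± 0.15 and 0.25 ± 0.14 (log2 change ± SE, limma adjusted p = 1.00 for each).

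**Figure D5:**
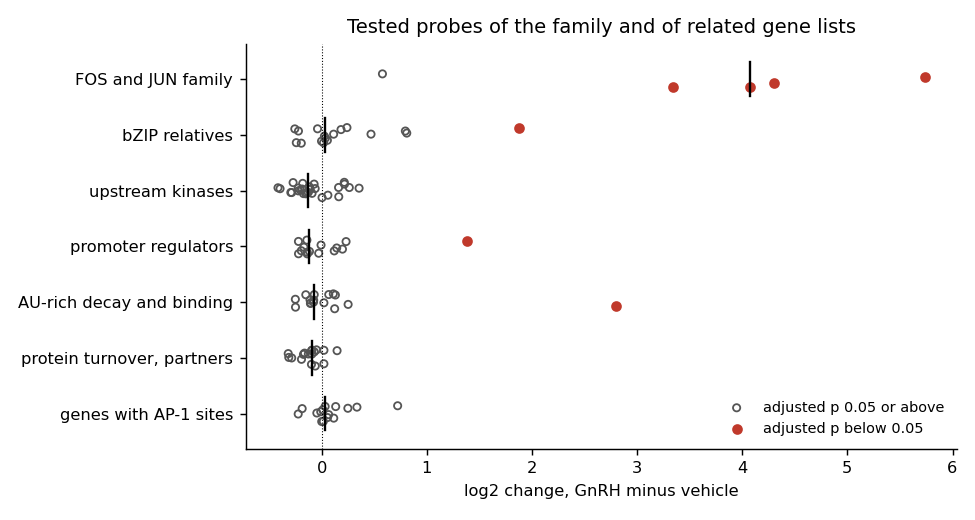
Log2 change (GnRH minus vehicle) of the tested probes of the FOS and JUN family and of 6 related gene lists, filled where the limma adjusted p was below 0.05, with a bar at the median. Filled points outside the family are Atf3 among the bZIP relatives, drawn at its fitted change of 1.88, Srf among the promoter regulators at 1.38 and Zfp36 at 2.80.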

How the data were processed

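RNA from ELAVL1 pull-downs of LbetaT2 cells was measured in 4 GnRH and 4 vehicle samples, 1 array each, which were grouped by their titles. Per the labels, 5 µg of ELAVL1 antibody was used on lysates pre-cleared with IgG and the beads were washed 6 times. Control pull-downs were not analysed here. The authors deposited linear bead signal intensity for each probe, with no normalization that its values show, and a detection p-value beside it, per the file headers. Their deposited table of processed intensity values, made by a method that neither labels nor headers state, ranked probes almost as the signals did (Spearman's rho 0.997 or more per array) and served as an alternative. No genome build is named there.

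Background was removed by normexp, fitted through the detection p-values, 16 was added, and log2 values were taken after quantile normalization, as neqc does (limma 3.58.1 under R 4.3.3). The 11318 probes with a detection p below 0.05 in 4 or more arrays entered lmFit and eBayes without a block. Precision is limited by having 4 arrays a group, with a median SE of 0.18 for log2 changes. Of 25697 probes 23978 had 1 gene symbol and 1719 had no unique symbol, with symbols updated from a RefSeq gene table. Intervals of differences between members use the pooled spread of the 8 arrays. The fit was tested on simulated data. Named genes were the members, the 3 genes most like each of Fos, Fosb, Jun and Junb, and from each list the called genes or else the 2 with the lowest p. The alternatives changed background correction, offset, normalization, filter, variance model, weights, block, covariate and the arrays used. The members and lists were chosen with earlier results of these data known. Promoter windows were found for 6 of 7 members. The members' proteins were not compared here.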

Additional observations from a re-analysis of the deposited data

Results flagged for a closer look

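Of 24 sets of 4 values checked (6 family probes, 2 groups, raw and normalized signals), 1 held a value far from the others by Dixon's criterion. Junb on GnRH replicate 3 had a raw signal of 475, while the other GnRH arrays lay between 1537 and 1674, a gap of 0.885 of the group's range. Chance alone gives about 1 such set in 20. After normalization the gap was 0.718 of the range and no longer met the criterion.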

How the results depend on the processing

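Fos, Fosb and Jun stayed called under all 19 alternatives and Junb under 18, ending only with no filter on dim probes (log2 change 4.07, limma adjusted p = 0.0738). Over the whole array 30 probes were higher in the reported fit, 14 with no filter, 46 with array weights and 17 (without vehicle replicate 3) to 27 with 1 array left out. With array weights 4 probes were lower, and leaving out 1 array gave 0 to 1 lower probes. With no filter on dim probes 0 of 23 bZIP relatives and 0 of 15 promoter regulators were higher. Fosb minus Fos was 1.45 with median scaling and 0.80 with an offset of 50 (exact permutation adjusted p = 0.0714 for both), and 1.21 to 1.71 with 1 array left out. Fos minus Jun then ran from 0.63 to 1.17 and Fos minus Junb from -0.34 to 0.56. Replicate numbers were not treated as pairs, since no label ties them to a shared culture or day and not every pair deviated together (r = 0.723, -0.227, 0.256 and 0.649 for replicates 1 to 4). There were hints of pairing, since same-numbered GnRH and vehicle samples carried neighbouring sample numbers and 5 of 8 arrays correlated best with their own number. With a replicate block 43 probes were higher, 4 members among them. The SE of Junb was then 0.23, against 0.42 without the block, and that of Jund 0.17, against 0.28. Jund did not pass with the block (limma adjusted p = 0.546). It was higher in GnRH in 4 of 4 same-numbered pairs. The share of all tested probes with that order was not counted, so no rise of Jund is read from it. The pair differences have the same values with replicate pairing (Fosb minus Fos 1.44, Fos minus Jun 0.96, Fos minus Jund 3.72, Fosb minus Jun 2.40, Fosb minus Junb 1.66, Fosb minus Jund 5.16, Jun minus Jund 2.76, Junb minus Jund 3.50), and none can pass, since the smallest exact p over 4 pairs is 0.125.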

Other observations

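Crem, a bZIP gene of the cyclic AMP pathway, was named only once its values were known. Its 3 tested probes had log2 changes of 0.81 ± 0.14, 0.80 ± 0.15 and 0.47 ± 0.18 (SE), and none passed (limma adjusted p = 0.0612, 0.0731 and 1.00).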
